A study of Mus musculus with 6 samples.

Results

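Plexins, semaphorins and neuropilins form the guidance-cue system examined here in mouse leukemia cells. The 10 members were picked by gene symbol from the deposited count table and comprised 4 plexins (Plxnc1, Plxnb2, Plxnd1, Plxna1), 4 semaphorins (Sema4a, Sema4b, Sema4d, Sema7a) and both neuropilins (Nrp1, Nrp2). The table has 56748 genes, of which 31 belong to these families. The choice was made with the expression values and group differences of these same libraries in view: members were selected on measured values of these libraries. Differences of the 10 members are therefore given as a description with no test, and nothing rests on them. Tests are given for the other family genes and for further genes of the pathway. Those lists, too, were drawn up with earlier results of these data known, so their counts of calls are no independent result.

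The cells carried MLL-AF9, an oncogene that joins MLL, a regulator of histone methylation, to AF9 and drives acute myeloid leukemia. Libraries came from 3 samples labelled Rbm5 KO (numbers 31, 32 and 40), set against 3 labelled Rbm5 WT (numbers 25, 27 and 29), where Rbm5 encodes an RNA-binding splicing factor. The comparison bears on the part of RBM5 in the MLL self-renewal program. The labels give whole bone marrow as the cell type but also speak of cultured cells, name no deleting Cre, promoter or age, and call the replicates independent. In bulk RNA, a larger number of cells of a type and more RNA per cell cannot be told apart.

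Totals ranged from 26359299 to 31807588 counts per library. Rbm5 itself was at 269, 267 and 245 CPM (counts relative to library size, scaled by TMM) in knockout-labelled libraries 31, 32 and 40, against 227, 214 and 174 CPM in wild-type-labelled libraries 25, 27 and 29. The targeted gene was thus not lower where the label says knockout, so the directions below rest on labels alone. The Y-linked gene Ddx3y had 2645, 2674 and 3311 counts in the knockout-labelled libraries and 0 in each wild-type-labelled one. Xist, of the inactive X chromosome, was at 13.0, 192 and 32.5 CPM in knockout-labelled libraries 31, 32 and 40, against 1625, 1363 and 1269 CPM in wild-type-labelled libraries 25, 27 and 29. Sex-linked expression and label therefore cannot be told apart. Genes of chromosome 6, which holds Plxnd1 and Plxna1, stood higher in wild-type-labelled libraries 27 and 29.

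Semaphorins are ligands, some secreted and most anchored in the membrane, that were first known for steering growing axons. Plexins are their receptors, and the inner part of a plexin acts on small GTPases that govern adhesion and the actin skeleton. Neuropilins are co-receptors with a short inner tail that also bind vascular endothelial growth factors. On leukocytes these molecules take part in migration, in contacts between cells and in lymphocyte co-stimulation.

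Of the 10 members, 8 had all knockout-labelled libraries above all wild-type-labelled ones, and 0 had all of them below. Over the 15963 genes tested with edgeR, such separation upward was seen in 17.2% and downward in 16.5%. At an edgeR adjusted p under 0.05, 5.45% of all genes were called higher and 3.12% lower (870 and 498 genes, so 63.6% of calls were higher), the background for the lists of other genes below. Scaled by total counts only, 597 genes were called higher and 682 lower, or 46.7% higher, and the log2 fold change of all genes had a median of -0.13. Since the members were chosen with this contrast in view, nothing is read from their count of separated genes. The median log2 fold change of the members was 0.96, beside -0.01 for all genes tested.

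**Figure D1:**
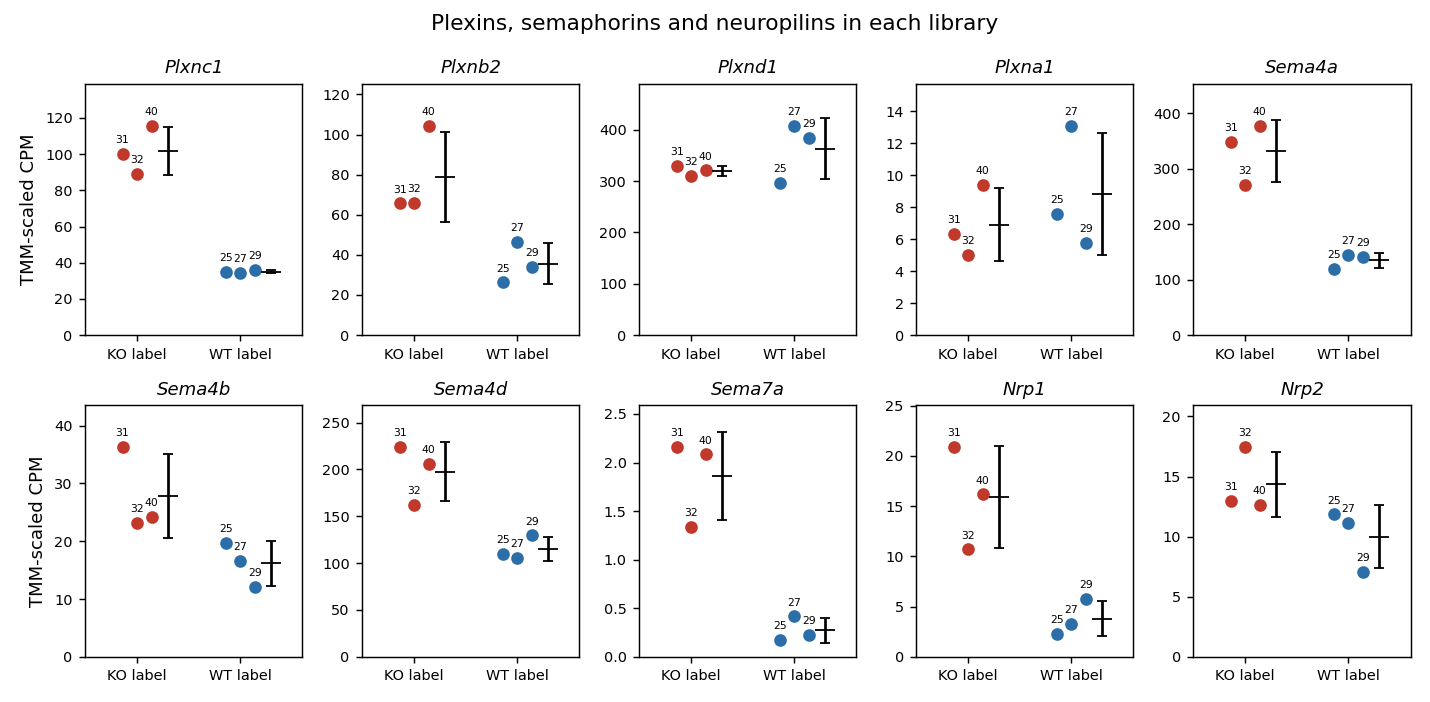
TMM-scaled CPM (vertical axis, from 0) of the 10 genes in each library, knockout-labelled in red and wild-type-labelled in blue, with library numbers and, in black, the mean and SD of 3 libraries. Plxnd1 and Plxna1 overlap between the groups, while Plxnc1 sits between 89.0 and 116 CPM in the knockout-labelled libraries and between 34.1 and 36.0 CPM in the wild-type-labelled ones.

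The stretches of 250 bases before the annotated starts were read for the members. RefSeq gave 16 such windows for 9 members (GRCm38.p6), Plxna1 being the one without. They were searched on both strands for CACGTG, the E-box read by MYC, for TTGCNNAA, a C/EBP motif, and for GAGGAAG, an ETS motif read by PU.1. GAGGAAG was in 6 of 16 member windows and in 10.6% of all 32851 windows, CACGTG in 1 of 16 and 6.02% of all, and TTGCNNAA in 1 of 16 and 9.56% of all. GAGGAAG lay before Plxnc1, Plxnd1, Sema4a, Sema4b and Nrp1, and in no window of Plxnb2, Sema4d, Sema7a or Nrp2. Windows of a gene can overlap each other, and a match is only a run of letters.

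Shown are the 3 windows with at least 2 matches, on the strand of the gene, with the matches in capitals. Plxnc1 and Plxnd1 each hold GAGGAAG at 2 places on the strand of the gene, and 0.950% of all windows hold 2 or more matches to GAGGAAG. The Sema4b window holds GAGGAAG and CACGTG. Their positions are chr10:94944846-94945095 (minus strand) for Plxnc1, chr6:115995006-115995255 (minus strand) for Plxnd1 and chr7:80198338-80198587 (plus strand) for Sema4b.
Plxnc1: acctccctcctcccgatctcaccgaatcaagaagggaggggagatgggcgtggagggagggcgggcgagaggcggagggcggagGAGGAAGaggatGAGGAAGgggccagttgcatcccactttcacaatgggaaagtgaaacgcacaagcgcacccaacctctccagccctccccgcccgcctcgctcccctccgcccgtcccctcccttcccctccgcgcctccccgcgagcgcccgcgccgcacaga
Plxnd1: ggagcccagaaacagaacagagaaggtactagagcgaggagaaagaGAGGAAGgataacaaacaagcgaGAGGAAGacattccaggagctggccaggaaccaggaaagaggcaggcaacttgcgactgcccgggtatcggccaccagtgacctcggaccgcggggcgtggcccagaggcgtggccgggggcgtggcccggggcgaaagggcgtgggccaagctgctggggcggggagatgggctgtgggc
Sema4b: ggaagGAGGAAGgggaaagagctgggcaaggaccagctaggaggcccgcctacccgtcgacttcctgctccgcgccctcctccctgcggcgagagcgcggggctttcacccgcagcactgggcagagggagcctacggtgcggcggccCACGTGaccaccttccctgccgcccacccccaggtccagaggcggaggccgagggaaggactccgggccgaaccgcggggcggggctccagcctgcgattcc
In Plxnc1 the matches begin 166 and 154 bases before the start, and in Plxnd1 204 and 181 bases before it. In Sema4b GAGGAAG begins 245 bases and CACGTG 102 bases before the start.

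Among the receptors, Plxnc1 and Plxnb2 were higher in the knockout-labelled libraries and Plxnd1 and Plxna1 overlapped. Plxnc1, the receptor of SEMA7A, was at 100.2, 89.0 and 116 CPM in knockout-labelled libraries 31, 32 and 40, against 35.1, 34.1 and 36.0 CPM in wild-type-labelled libraries 25, 27 and 29. The wild-type-labelled values lay within a narrow band and the groups were well apart. The means were 102 ± 13.4 CPM and 35.1 ± 0.945 CPM (SD, n = 3 each), and the log2 fold change, taken as knockout-labelled over wild-type-labelled, was 1.53 ± 0.12 (SE). Among the 13 alternative settings it stayed between 1.41 and 1.62. The gene lies on chromosome 10, from 94626728 to 94780697 on the minus strand, in the coordinates of the table, which names no build.

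Plxnb2, a B-type plexin that binds class 4 semaphorins, was at 65.6, 65.9 and 104 CPM in knockout-labelled libraries 31, 32 and 40, against 26.3, 46.4 and 34.1 CPM in wild-type-labelled libraries 25, 27 and 29. Library 40 was the highest and the groups did not overlap. The means were 78.7 ± 22.4 CPM and 35.6 ± 10.2 CPM (SD, n = 3 each), with a log2 fold change of 1.14 ± 0.26 (SE) that ranged from 0.89 without knockout-labelled library 40 to 1.57 against wild-type-labelled library 25 alone. Plxnb2 lies on chromosome 15, from 89039752 to 89064991 on the minus strand.

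Plxnd1, a receptor of SEMA3E, was the plexin with the highest level in every library. It was at 329, 310.2 and 321 CPM in knockout-labelled libraries 31, 32 and 40, against 296, 408 and 385 CPM in wild-type-labelled libraries 25, 27 and 29. Wild-type-labelled library 25 was below all knockout-labelled ones and the other two were above them. The log2 fold change was -0.18 ± 0.13 (SE), and 0.10 against wild-type-labelled library 25 alone. Chromosome 6 had 393 genes whose log2 CPM averaged over 4, and their median deviation from the mean of the 6 libraries was -0.10, -0.13 and -0.11 in the knockout-labelled libraries. In wild-type-labelled libraries 25, 27 and 29 it was -0.14, 0.26 and 0.23, so the chromosome and Plxnd1 ranked the 6 libraries alike. The part of the chromosome in the Plxnd1 value was not tested. Plxnd1 lies on chromosome 6, from 115931772 to 115971966 on the minus strand.

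Plxna1, an A-type plexin that works with neuropilins and with the TREM2 and DAP12 pair, lies on the same chromosome, from 89293296 to 89339602. It was at 6.32, 5.01 and 9.40 CPM in knockout-labelled libraries 31, 32 and 40, against 7.56, 13.1 and 5.77 CPM in wild-type-labelled libraries 25, 27 and 29. The groups overlapped, and wild-type-labelled library 27 was the highest. The log2 fold change of -0.35 ± 0.36 (SE) turned to 0.04 without that library.

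Among the ligands, the 4 member semaphorins, out of 20 semaphorin genes, had knockout-labelled libraries above wild-type-labelled ones, by different amounts. They were picked with this contrast in view, and 17.2% of all genes tested were separated upward. Sema4a, a class 4 membrane semaphorin that co-stimulates T cells in mice, was at 348, 270.1 and 378 CPM in knockout-labelled libraries 31, 32 and 40, against 119, 145 and 141 CPM in wild-type-labelled libraries 25, 27 and 29. The lowest knockout-labelled value, in library 32, was well above the highest wild-type-labelled one. The means were 332 ± 55.5 CPM and 135 ± 13.8 CPM (SD, n = 3 each), and the log2 fold change was 1.30 ± 0.14 (SE). It lies on chromosome 3, from 88343266 to 88368489 on the minus strand.

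Sema4d, also known as CD100, a ligand of B-type plexins and of CD72, was at 224, 162 and 206 CPM in knockout-labelled libraries 31, 32 and 40, against 110.2, 105 and 129.5 CPM in wild-type-labelled libraries 25, 27 and 29. The groups did not overlap, with library 32 again the lowest of its group. The means were 197 ± 31.5 CPM and 115 ± 12.9 CPM (SD, n = 3 each), and the log2 fold change was 0.78 ± 0.14 (SE). Sema4d lies on chromosome 13, from 51839565 to 51947783 on the minus strand.

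Sema4b, another class 4 membrane semaphorin, was at 36.3, 23.1 and 24.2 CPM in knockout-labelled libraries 31, 32 and 40, against 19.7, 16.7 and 12.1 CPM in wild-type-labelled libraries 25, 27 and 29. Library 31 stood above the others, and the gap between the groups was small beside the spread within them. The log2 fold change was 0.78 ± 0.24 (SE), close to that of Sema4d but with a wider error, and it was 0.55 without library 31 and 0.49 against wild-type-labelled library 25 alone. Sema4b lies on chromosome 7, from 79836589 to 79876275 on the plus strand.

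Sema7a, which is held in the membrane by a lipid anchor and binds PLXNC1 and integrins, had the largest log2 fold change of the 10 members at the lowest level. It had 58, 35 and 51 counts in knockout-labelled libraries 31, 32 and 40, against 6, 12 and 7 counts in wild-type-labelled libraries 25, 27 and 29. In CPM these were 2.16, 1.34 and 2.08 against 0.176, 0.417 and 0.222. The groups did not overlap, but each wild-type-labelled value rests on few counts. The log2 fold change was 2.77 ± 0.48 (SE), and 2.53 to 3.35 over the alternative settings. The ligand Sema7a and its receptor Plxnc1 both stood higher in the knockout-labelled libraries. Both were picked with this contrast in view, so nothing is read from the pair. Sema7a lies on chromosome 9, from 57847395 to 57870148 on the plus strand.

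Of the co-receptors, Nrp1 differed more than Nrp2. Nrp1, which binds secreted class 3 semaphorins and VEGFA, was at 20.9, 10.7 and 16.2 CPM in knockout-labelled libraries 31, 32 and 40, against 2.32, 3.30 and 5.74 CPM in wild-type-labelled libraries 25, 27 and 29. Libraries 31 and 25 marked the ends of the range, and the lowest knockout-labelled value was above the highest wild-type-labelled one. The means were 15.9 ± 5.09 CPM and 3.79 ± 1.76 CPM (SD, n = 3 each). The log2 fold change was 2.07 ± 0.38 (SE) and 2.76 against wild-type-labelled library 25 alone. Nrp1 lies on chromosome 8, from 129085085 to 129229844 on the plus strand.

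Nrp2, the co-receptor of SEMA3F and VEGFC, was at 13.0, 17.4 and 12.6 CPM in knockout-labelled libraries 31, 32 and 40, against 11.9, 11.1 and 7.04 CPM in wild-type-labelled libraries 25, 27 and 29. The groups met closely at 12.6 and 11.9 CPM without overlapping. The log2 fold change was 0.52 ± 0.25 (SE). Here library 32 was the highest, while it was the lowest of its group for Nrp1. Nrp2 lies on chromosome 1, from 62742444 to 62857854 on the plus strand.

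Neutrophil markers, and some monocyte and macrophage markers, were higher in the same libraries. Over all genes tested, 5.45% were called higher and 17.2% had all knockout-labelled libraries above all wild-type-labelled ones. Of 12 neutrophil markers, 8 passed the edgeR test as higher and all 12 had knockout-labelled libraries above wild-type-labelled ones. Their summed level was 9635 to 17131 CPM in the knockout-labelled libraries and 651 to 2437 CPM in the wild-type-labelled ones. Of 13 monocyte and macrophage markers, 3 passed as higher (Csf1r, Lyz2 and Ms4a7) and 10 did not pass, 5 had knockout-labelled libraries above wild-type-labelled ones, and log2 fold changes ran from -0.30 to 2.68. Their summed level was 3321 to 5455 CPM in the knockout-labelled libraries and 1484 to 2422 CPM in the wild-type-labelled ones. No marker of either list was at 0 in every library. The part of these markers in the plexin, semaphorin and neuropilin values was not tested.

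Levels of different genes were compared per length, as RPKM, the CPM divided by the gene length of the table in units of 1000 bases. In the knockout-labelled libraries Sema4a led with 61.4 ± 10.3 RPKM, before Plxnd1 with 43.8 ± 1.28 and Sema4d with 25.7 ± 4.10 RPKM (SD, n = 3 each). There, Plxnc1 (12.2 ± 1.61 RPKM) and Plxnb2 (10.2 ± 2.90 RPKM) overlapped, and Sema4b followed with 4.94 ± 1.29 RPKM. Nrp1 (1.63 ± 0.520 RPKM) overlapped Nrp2 (1.21 ± 0.226 RPKM), and Plxna1 (0.763 ± 0.249 RPKM) overlapped Sema7a (0.564 ± 0.137 RPKM).

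In the wild-type-labelled libraries the order was led by Plxnd1 with 49.7 ± 8.13 RPKM, before Sema4a with 24.96 ± 2.56 and Sema4d with 14.97 ± 1.68 RPKM (SD, n = 3 each). Plxnb2 (4.61 ± 1.32 RPKM) and Plxnc1 (4.20 ± 0.113 RPKM) overlapped and stood above Sema4b (2.86 ± 0.679 RPKM). Plxna1 (0.973 ± 0.422 RPKM) overlapped Nrp2 (0.845 ± 0.219 RPKM), before Nrp1 (0.387 ± 0.180 RPKM) and Sema7a (0.0824 ± 0.0387 RPKM). The leading ligand and the leading plexin thus changed places between the groups. Nrp2 stood above Nrp1 in the wild-type-labelled libraries, while their values overlapped in the knockout-labelled ones. Over all genes tested, Plxnd1 stood at the 93.2nd percentile of mean RPKM and Sema7a at the 10.2nd.

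Summed over 9 plexin genes, the level was 69.8 ± 5.52 RPKM in the knockout-labelled libraries and 62.5 ± 9.01 RPKM in the wild-type-labelled ones, with values that overlapped. Plxnd1 made up 66.1%, 65.0% and 57.8% of that sum in knockout-labelled libraries 31, 32 and 40, against 76.8%, 79.3% and 82.0% in wild-type-labelled libraries 25, 27 and 29. Plxnc1 made up 17.6%, 16.3% and 18.2%, against 7.97%, 5.80% and 6.72%. Plxnd1 held a smaller share, and Plxnc1 a larger one, in each knockout-labelled library than in any wild-type-labelled one.

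The 6 class 4 semaphorin genes summed to 96.3 ± 14.6 RPKM in the knockout-labelled libraries and 45.9 ± 2.63 RPKM in the wild-type-labelled ones, and the groups did not overlap. Sema4a held 62.0%, 62.9% and 66.0% of it in knockout-labelled libraries 31, 32 and 40, against 51.0%, 58.0% and 53.9% in wild-type-labelled libraries 25, 27 and 29. Sema4d held 25.4% to 28.1% in the knockout-labelled libraries and 29.7% to 34.8% in the wild-type-labelled ones. Both genes were picked with this contrast in view, so the separation of the sum largely repeats theirs. The 14 other semaphorin genes summed to 13.8 ± 1.37 RPKM and 13.3 ± 0.689 RPKM in the same order of groups (SD, n = 3 each). Nrp1 held 66.0%, 42.6% and 60.8% of the neuropilin sum in knockout-labelled libraries 31, 32 and 40, against 19.2%, 26.4% and 49.7% in wild-type-labelled libraries 25, 27 and 29. These shares overlapped between the groups.

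**Figure D2:**
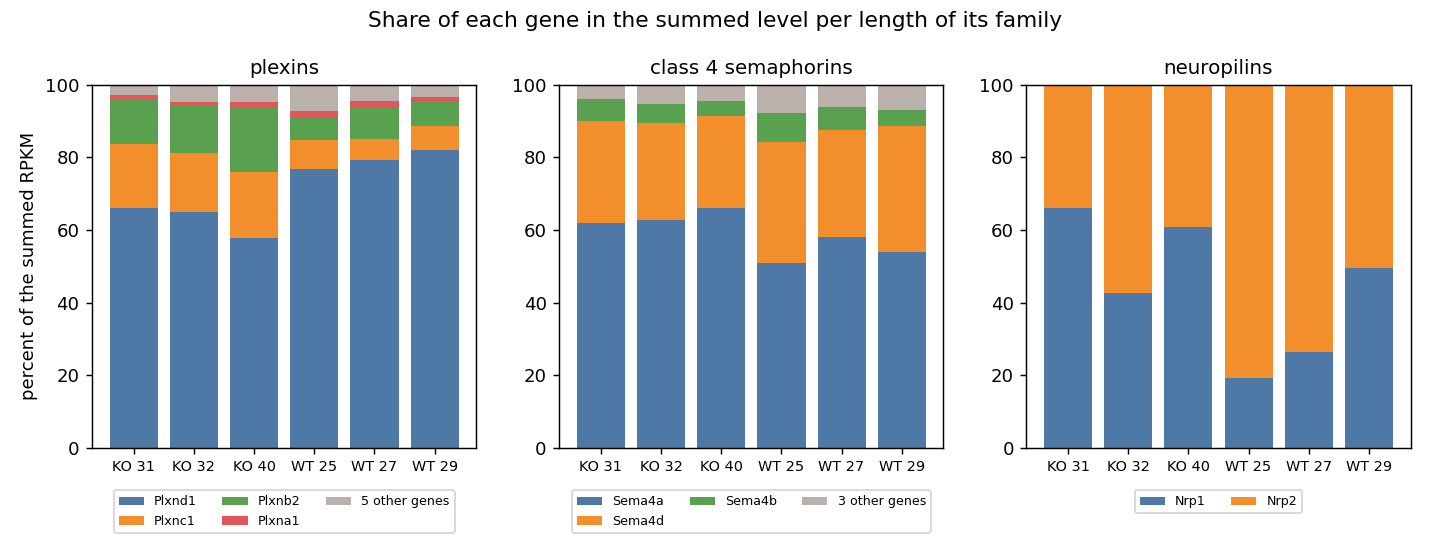
Percent of the summed RPKM (vertical axis) that each gene holds among 9 plexins, 6 class 4 semaphorins and 2 neuropilins, in the 3 knockout-labelled (KO) and then the 3 wild-type-labelled (WT) libraries. Plxnd1 holds 57.8% to 66.1% of the plexin sum in the knockout-labelled libraries and 76.8% to 82.0% in the wild-type-labelled ones.

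The families hold 21 further genes, of which 10 were tested and 11 had too few counts (at most 17 in a library), with Sema5b at 0 throughout. Of the 10 tested, 1 passed the edgeR test as lower and 0 as higher, with a median log2 fold change of 0.16. An unadjusted edgeR p under 0.05 was found for 6 of these 10, and for 4293 of all 15963 genes tested. Of the 20 with any count, DESeq2 called 3 higher (Plxnb3, Sema3g and Sema4f) and 1 lower (Plxna3). Sema3g had 19, 7 and 9 counts in wild-type-labelled libraries 25, 27 and 29, and Sema4f, of chromosome 6, had 3, 10 and 12. Both thus rest on few counts there. Over all 29260 genes with any count, DESeq2 called 1486 higher and 989 lower. Some of these genes, Plxna4 and Sema3a among them, got no adjusted p from DESeq2 and could not be called. Plxna3, an X-linked A-type plexin, fell to 9.0, 7.84 and 9.19 CPM in knockout-labelled libraries 31, 32 and 40, against 23.6, 15.5 and 12.4 CPM in wild-type-labelled libraries 25, 27 and 29. Its log2 fold change was -0.99 ± 0.25 (SE, edgeR adjusted p = 0.0491), but it passed in 1 of 6 fits that left out a library, the one without wild-type-labelled library 29. The adjusted p reached 0.135 without knockout-labelled library 40, and Plxna3 also missed the threshold with RLE factors.

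The other family genes with a mean of at least 1 CPM, 3 in number, did not pass the edgeR test with all 6 libraries. Plxnb3, the other X-linked plexin, was at 4.61, 13.7 and 15.9 CPM in knockout-labelled libraries 31, 32 and 40, against 4.47, 6.70 and 3.74 CPM in wild-type-labelled libraries 25, 27 and 29 (edgeR adjusted p = 0.146). Without knockout-labelled library 31 it passed as higher (log2 fold change 1.57, edgeR adjusted p = 0.0418), and it did not in the other 5 fits that left out a library. Sema4c, a ligand of PLXNB2, was at 16.8, 18.8 and 20.7 CPM, against 14.8, 12.1 and 14.7 CPM (edgeR adjusted p = 0.128). Sema6b, a membrane semaphorin, was at 51.0, 45.9 and 55.3 CPM, against 49.2, 54.6 and 50.4 CPM (log2 fold change -0.02, edgeR adjusted p = 0.933). Of all semaphorins outside class 4 it had the highest level, with 91.4% to 93.7% of their sum in the knockout-labelled libraries and 96.6% to 97.8% in the wild-type-labelled ones.

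**Figure D3:**
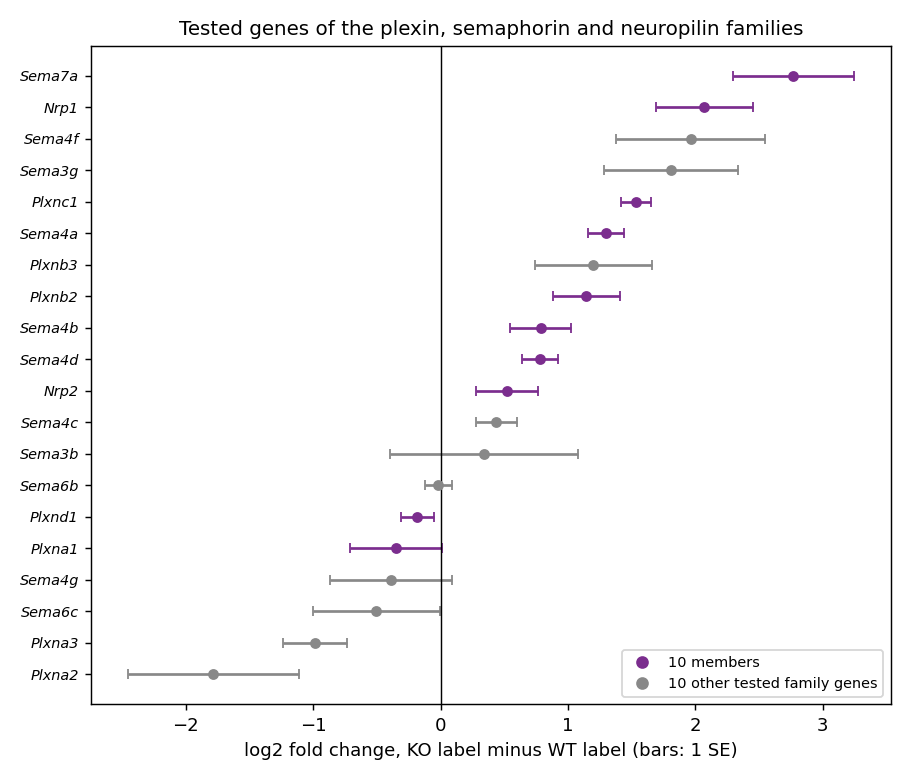
Log2 fold change (knockout-labelled over wild-type-labelled) of the 20 tested family genes (horizontal axis, with bars of 1 SE), the 10 members in purple and the 10 other genes in grey. Sema7a at 2.77 and Plxna2 at -1.78 mark the ends, and Sema6b and Plxnd1 lie near 0. Plxna2 had 3 to 45 counts per library and did not pass (edgeR adjusted p = 0.137).

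In the molecules that sit beside these receptors, 2 of 16 tested genes passed as higher and 1 as lower, where 5.45% and 3.12% of all genes did. Tyrobp, which encodes the adaptor DAP12 used by PLXNA1, rose to 349, 320 and 424 CPM in knockout-labelled libraries 31, 32 and 40, against 225, 214 and 238 CPM in wild-type-labelled libraries 25, 27 and 29 (log2 fold change 0.69 ± 0.12 SE, edgeR adjusted p = 0.0180). L1cam, an X-linked adhesion molecule that associates with NRP1, rose by 0.87 ± 0.16 SE on the log2 scale (edgeR adjusted p = 0.0205). Gipc1, an adaptor that binds the tails of neuropilins and of PLXND1, had a log2 fold change of -0.38 ± 0.09 SE (edgeR adjusted p = 0.0360). The list median was 0.21. Of 6 fits that each left out 1 library, Tyrobp passed in 4, L1cam in 2 and Gipc1 in 0. Their highest adjusted p there was 0.0550 (without wild-type-labelled library 27) for Tyrobp, 0.0773 (without knockout-labelled library 40) for L1cam and 0.0964 (without knockout-labelled library 31) for Gipc1.

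Of 33 tested genes through which plexins signal inside the cell, 7 rose, 4 fell and 22 did not pass, with a median log2 fold change of 0.23. Over all genes tested, 5.45% were called higher and 3.12% lower. The list was drawn up with earlier results of these data known, so nothing is read from its share of calls. Rap1gap, which switches off the plexin substrate RAP1, fell to 6.81, 8.14 and 6.17 CPM in knockout-labelled libraries 31, 32 and 40, against 30.8, 23.2 and 19.8 CPM in wild-type-labelled libraries 25, 27 and 29 (log2 fold change -1.81 ± 0.21 SE, edgeR adjusted p = 0.00498). It passed in all 6 fits that left out 1 library, with an adjusted p of at most 0.0243. Pak1, a kinase activated by RAC, rose by 0.82 ± 0.13 SE on the log2 scale (edgeR adjusted p = 0.0127) and passed in all 6 as well. Fyn, a SRC-type kinase, fell by 1.73 on the log2 scale (edgeR adjusted p = 0.0143) and passed in 5 of 6. Rras2, a RAS-type GTPase, rose to 1.12, 0.803 and 0.940 CPM in knockout-labelled libraries 31, 32 and 40, against 0.0882, 0.0695 and 0.159 CPM in wild-type-labelled libraries 25, 27 and 29 (log2 fold change 3.12 ± 0.52 SE, edgeR adjusted p = 0.0155). It passed in 2 of 6 and rests on few counts in the wild-type-labelled libraries.

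The other fallen genes, named after their values were seen, were Mical3 of chromosome 6 and Arhgap35, which encodes a GTPase-activating protein, with log2 fold changes of -1.68 and -0.91. Each passed in 1 of 6 fits with a library left out. The other genes that rose, likewise named afterwards, were Farp1, Mical2, Rnd1, Sh3bp1 and Fes, with log2 fold changes of 2.84, 1.03, 0.98, 0.59 and 0.50. Of the same 6 fits Rnd1 passed in 4, Farp1, Sh3bp1 and Fes in 2 each and Mical2 in 1. Farp1 rests on few counts, with 27, 42 and 40 in knockout-labelled libraries 31, 32 and 40. It had 5, 10 and 3 in wild-type-labelled libraries 25, 27 and 29. Without knockout-labelled library 40 only 2 of the 33 passed, and 2 passed against wild-type-labelled library 25 alone. Among 5 tested proteases that cut semaphorins, Furin, which processes secreted semaphorins, rose by 0.48 ± 0.12 SE (edgeR adjusted p = 0.0466), and it did not pass in any fit with a library left out.

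**Figure D4:**
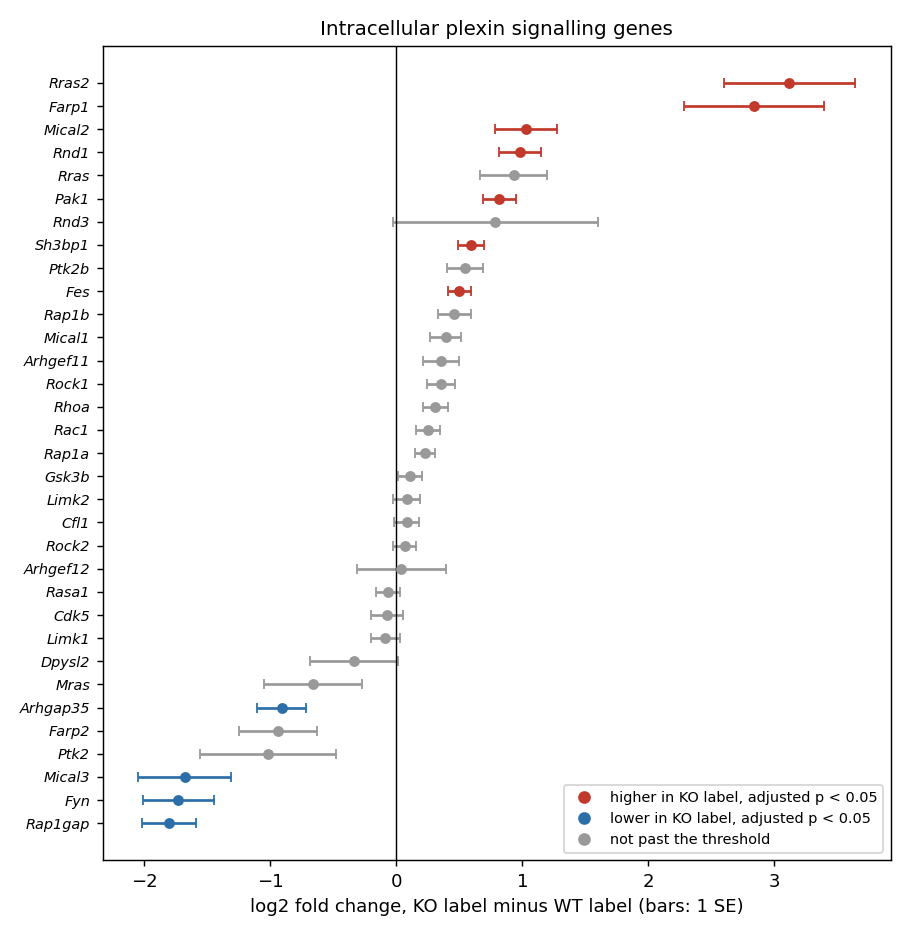
Log2 fold change (knockout-labelled over wild-type-labelled) of the 33 tested intracellular plexin signalling genes (horizontal axis, with bars of 1 SE), in red for the 7 higher and blue for the 4 lower genes past an edgeR adjusted p of 0.05 and in grey for the rest. Rras2 at 3.12 and Rap1gap at -1.81 mark the ends.

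For the 3 members with the widest range over the libraries, the genes with the nearest profile were sought among protein-coding genes of at least 10 CPM. The measure was the root mean square distance between log2 CPM profiles over the 6 libraries, each centred on its own mean, so the difference between the groups enters it. Nearest to Nrp1 was Clec5a, a myeloid lectin receptor, at a distance of 0.06, followed by Ffar2, a receptor of short fatty acids, at 0.28. Clec5a was at 49.8, 23.5 and 39.8 CPM in knockout-labelled libraries 31, 32 and 40, against 6.29, 8.61 and 14.1 CPM in wild-type-labelled libraries 25, 27 and 29. It ranked the 6 libraries as Nrp1 did, and it lies on chromosome 6.

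Nearest to Plxnb2 were Sh3bp5, at a distance of 0.09, and Pik3r5, a regulatory subunit of a phosphoinositide kinase, at 0.11. Nearest to Sema7a was Myadm, at 0.13, where the 0.5 CPM added before taking logs compresses the low values of Sema7a.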

How the data were processed

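The authors deposited 1 table of whole-number counts per gene for 6 libraries, not normalized, with a gene length used here for RPKM only. The submitters' processing notes list Salmon, limma, GRCm38 and mm10 with no role for any of them. The sources used here do not say whether the counts are reads or rounded estimates, nor how strand was handled. Of 52073 gene identifiers shared with GENCODE M21 (GRCm38), 2.85% had the same start, so coordinates of the table carry no build name. Promoter windows are from RefSeq (GRCm38.p6).

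Groups came from the genotype labels. The 15963 genes kept by filterByExpr (minimum count 10, minimum total 15) entered a robust quasi-likelihood test in edgeR 4.0.16 under R 4.3.3 with TMM factors. Benjamini-Hochberg adjustment ran over all of them, and each SE was derived from the test statistic. The code was tested on simulated data. DESeq2 1.42.0, other scalings and filters and fits with libraries left out were the alternatives.

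Members and lists were chosen with earlier results of these data known. Named genes were the 10 members, other family genes averaging at least 1 CPM and, of each pathway list, up to 4 called genes with the smallest p. Likeness of profiles used log2 CPM with 0.5 added, and 1 of its genes and 1 marker list are not reported here. No library pair agreed within sampling noise (lowest chi-square per degree of freedom 44.5). The p-values measure the spread between samples that the labels call independent.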

Additional observations from a re-analysis of the deposited data

How the results depend on the processing

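The signs of 8 of the 10 members were the same under all 13 alternatives, the exceptions being Plxnd1 (0.10 against wild-type-labelled library 25 alone) and Plxna1 (0.04 without wild-type-labelled library 27). These 8 had every knockout-labelled library above every wild-type-labelled one and were chosen with this contrast in view. Leaving out libraries could therefore hardly turn their signs, and nothing is read from the stable signs. Over all genes 1368 were called, 2475 with DESeq2 and 453 against wild-type-labelled library 25 alone, where that lone sample is assumed to vary like the others. With a library left out the count was 347 (without knockout-labelled library 40) to 1227 (without library 32). Of the other family genes 1 was called, 0 with RLE factors, 0 without robust shrinkage and 4 with DESeq2, and 0 to 1 with a library left out, where the 1 was Plxnb3 without knockout-labelled library 31 and Plxna3 without wild-type-labelled library 29. Of the receptor partners 3 were called, 4 with DESeq2 and 0 to 2 with a library left out. Of the signalling genes 11 were called, 15 with DESeq2 and 2 to 10 with a library left out. Without a filter on low counts 12 signalling genes were called, and 9 of 31 with at least 1 CPM in 3 libraries. Of the proteases 1 was called, 0 with total counts only, 0 without robust shrinkage, 0 against library 25 alone and 0 in each fit with a library left out. The causes were not tested. No paired analysis was possible because the sample numbers are not shared between the groups. Low counts limit Sema7a, Rras2, Farp1, Sema3g and Sema4f in the wild-type-labelled libraries. With a filter of at least 1 CPM in 3 libraries, Rras2, Farp1, Sema3g and Sema4f were not tested.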

Other observations

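Among markers of further cell types, 3 genes passed the edgeR test, each higher, where 5.45% of all genes tested were called higher and 3.12% lower. Nothing is read from this count. Prg2, an eosinophil granule protein, was at 65.8, 30.4 and 29.3 CPM in knockout-labelled libraries 31, 32 and 40, against 5.50, 2.57 and 4.31 CPM in wild-type-labelled libraries 25, 27 and 29 (edgeR adjusted p = 0.0103). It was 1 of 6 tested eosinophil, basophil and mast cell markers, whose log2 fold changes ran from -1.43 to 3.34 with a median of 0.33. Of 8 such markers with any count, DESeq2 called Prg2, Ear2 and Epx higher and Cpa3 lower. The summed level of all 9 listed was 154 to 214 CPM in the knockout-labelled libraries and 115 to 249 CPM in the wild-type-labelled ones. Gp9, a platelet glycoprotein and 1 of 4 tested megakaryocyte markers, lies on chromosome 6 and had a log2 fold change of 1.59 ± 0.35 SE (edgeR adjusted p = 0.0323), and DESeq2 called Pf4 and Ppbp higher as well. Hbb-bs, a globin and 1 of 4 tested erythroid markers, was at most 1.38 CPM (edgeR adjusted p = 0.0238).

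Over all 15963 genes tested with edgeR, 4293 had an unadjusted p under 0.05. DESeq2 called 1486 higher and 989 lower of 29260 genes with any count, some of which got no adjusted p and could not be called. By edgeR 0 of 5 tested dendritic cell markers passed, with 1 at an unadjusted p under 0.05, and DESeq2 called 0 of 9. The summed level of all 9 listed was 364 to 543 CPM in the knockout-labelled libraries and 379 to 553 CPM in the wild-type-labelled ones. Of 5 tested T cell markers 0 passed by edgeR, with 2 at an unadjusted p under 0.05, and DESeq2 called 1 of 9 (Cd3d). The summed level of all 9 listed was 3.75 to 10.7 CPM in the knockout-labelled libraries and 3.26 to 5.90 CPM in the wild-type-labelled ones. Of 3 tested NK cell markers 0 passed by edgeR, with 0 at an unadjusted p under 0.05, and DESeq2 called 1 of 7 (Eomes). The summed level of all 7 listed was 17.5 to 56.9 CPM in the knockout-labelled libraries and 28.6 to 63.9 CPM in the wild-type-labelled ones. Of 3 tested endothelial markers 0 passed by edgeR, with 0 at an unadjusted p under 0.05, and DESeq2 called 0 of 7 with any count. The summed level of all 8 listed was 85.1 to 161 CPM in the knockout-labelled libraries and 103 to 187 CPM in the wild-type-labelled ones. Of 4 tested stromal markers 0 passed by edgeR, with 2 at an unadjusted p under 0.05, while DESeq2, of 8, called Col1a1 higher and Pdgfrb lower. The summed level of all 8 listed was 31.5 to 41.6 CPM in the knockout-labelled libraries and 35.6 to 71.9 CPM in the wild-type-labelled ones.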
